A study of Mus musculus with 16 samples.

Results

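Cells sorted as rods from mouse retinal organoids at day 28 of differentiation were compared with those sorted at day 18. The comparison used the 2 libraries of day 28 (ESC and iPSC) and the 5 libraries of day 18 (3 ESC and 2 iPSC), 7 of the 16 libraries of the series. They were chosen by the day and source in their labels, and the other 9 libraries (days 21, 25 and 35) entered the fit to give a pooled estimate of the spread. The lines came from Nrl-GFP transgenic mice, in which the promoter of Nrl drives green fluorescent protein. ESC lines were taken from blastocysts, and iPSC lines were made from embryonic fibroblasts with inducible lentiviral Oct3/4, Sox2, Klf4 and c-Myc. Both were used at passage 15 to 25. Organoids, three-dimensional retinal cultures, were grown at 5% oxygen to day 10 and at 20% oxygen afterwards, with taurine in the medium from day 10. Retinoic acid at 500 nM was present until day 26, with its start given as day 10 in one place and as day 14 in another. From day 26 the medium was replaced by one with 2% serum. The day 18 cells were therefore taken during the retinoic acid period and the day 28 cells after it, so that day and medium cannot be told apart in this comparison. GFP-positive cells were sorted by flow cytometry and their polyA RNA was sequenced with a stranded kit.

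Rods are the photoreceptors of dim-light vision. In their outer segment, light-activated visual pigment switches on the G protein transducin, which releases a phosphodiesterase from its inhibitory subunits. The fall in cyclic GMP then closes a cation channel, and recoverin, guanylate cyclase and the RGS9 complex set the timing of recovery. Nrl and its target Nr2e3 direct the rod fate, and Crx acts in rods and cones. Outer segments and ribbon synapses are built late in rod differentiation, after the cells have left the cell cycle.

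The day 18 libraries were not alike, and their labels were only partly borne out by rod genes. Nrl was at 1067 and 1921 CPM in the ESC and iPSC day 28 libraries. At day 18 it was at 17.74, 202.6 and 135.8 CPM in ESC replicates 1 to 3, and at 15.99 and 881 CPM in iPSC replicates 1 and 2. Mki67, a proliferation antigen, was at 84.2 and 5.14 CPM in the ESC and iPSC day 28 libraries. At day 18 it was highest where Nrl was lowest, at 406 and 462 CPM in the replicates numbered 1, with 66.5, 146 and 172 CPM in the remaining libraries. The day 18 replicates numbered 1 (ESC and iPSC), called the low-Nrl pair below, correlated across genes at 0.992. Their chi-square per degree of freedom was 8.7, above sampling noise, and they were counted as separate samples. Y-linked genes went against the source of 2 day 18 libraries: their mean was 0.927 CPM in ESC replicate 1 and 42.2 CPM in iPSC replicate 2. The other ESC libraries were at 25.6 to 73.8 CPM. The other iPSC libraries were at 0.626 to 1.48 CPM, except day 25 replicate 1 at 11.5 CPM, which also entered the fit. Library totals, rebuilt from the deposited tables, were 4878875 (ESC) and 3865012 (iPSC) estimated counts at day 28, against 4226211 to 21885523 at day 18. In the smallest of these libraries 1 estimated count was worth 0.213 CPM. Separate cultures are not stated for the libraries of a group. The p-values therefore cover only the spread between the libraries at hand, and part of it may be technical.

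Genes of the light response and the outer segment were among the largest rises at day 28: the phosphodiesterase subunits Pde6g and Pde6a, the retinol dehydrogenase Rdh8 and the calcium sensor Rcvrn. The falls were fewer and smaller, and were led by Cyp26a1, an enzyme that degrades retinoic acid. Of 15202 genes tested with limma on log2(CPM + 1), 88 (0.579%) passed a Benjamini-Hochberg adjusted p of 0.05. They were 77 genes higher at day 28 (0.507%) and 11 lower (0.0724%). At an unadjusted p under 0.05 there were 3342 genes. The log2 differences of the genes called higher had a median of 2.44, those called lower ran from -4.16 to -1.03 with a median of -1.81, and the median of all tested genes was -0.03. In all 77 genes called higher and all 11 called lower, both day 28 libraries lay outside the day 18 range. Over all tested genes, 11.9% lay above that range and 11.6% below it. The choice of the called genes on these same libraries largely fixes their lack of overlap. Without the low-Nrl pair, Pde6a alone was called (0.00658% of the tested genes, log2 difference 4.47, limma adjusted p = 0.00498). All 88 genes kept their direction, which the lack of overlap largely fixes. The medians were then 2.23 for the genes higher and -1.64 for those lower. Without the pair whose Y-linked genes went against their source (the Y-label pair), 67 genes were called, 65 higher (0.428%) and 2 lower (0.0132%), of which 43 were among the 88. In edgeR's quasi-likelihood test on the estimated counts of 8747 genes, 38 were called higher (0.434%) and 1 lower (0.0114%), among them 29 of the 55 called genes that could be tested there. Fewer cells of a type in the sort and less RNA per cell cannot be told apart in such bulk samples.

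**Figure D1:**
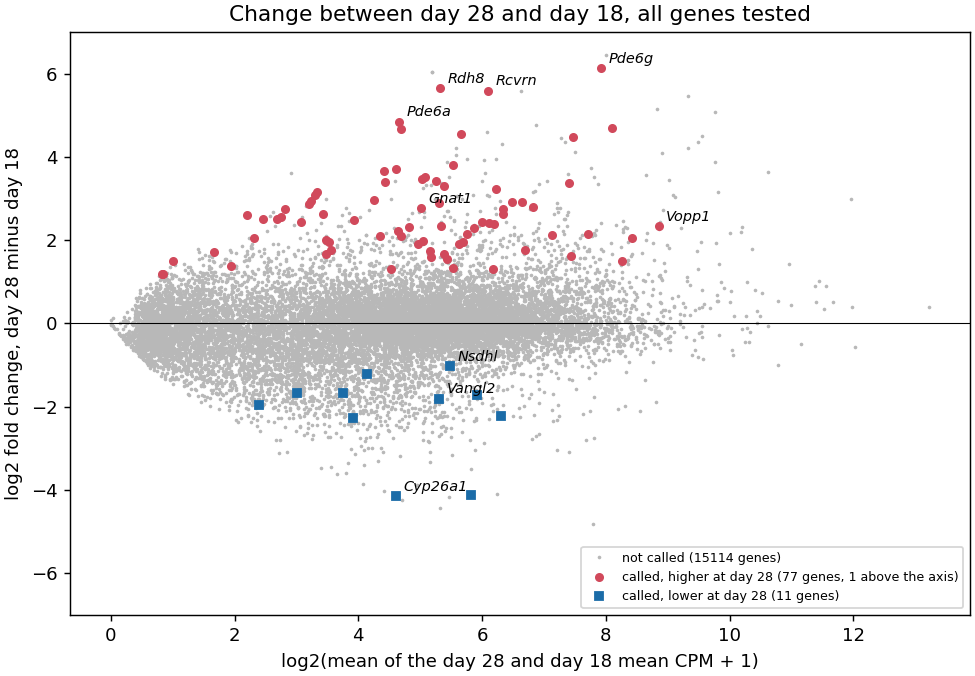
Log2 difference between day 28 and day 18 (vertical) against the log2 mean CPM of both days (horizontal) for every tested gene, called genes coloured. The 77 genes called higher include Pde6g (6.14), Rdh8 (5.65), Rcvrn (5.59) and Pde6a (4.85); 1 lies above the axis, and the 11 called lower end at Cyp26a1 (-4.16).

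Among the rod phototransduction genes, 7 of the 20 tested rose and none fell, against 0.507% of all genes called higher. Those described here are Pde6g, Rcvrn, Pde6a, Gngt1, Gnat1 and Gnb5. Log2 differences over the list had a median of 3.63, and all 20 were positive, against 47.6% of all genes. Without the low-Nrl pair the median was 2.57 and the single called member was Pde6a. The summed level of the list was 7396 (ESC) and 17560 (iPSC) CPM at day 28, against 435 to 3119 CPM at day 18.

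The rod phosphodiesterase consists of the catalytic subunits Pde6a and Pde6b and the inhibitory subunit Pde6g. Pde6g (chromosome 11, 120447605 to 120453500, minus strand, GRCm38) was at 260 (ESC) and 690 (iPSC) CPM at day 28, against 0.876, 15.1 and 5.27 CPM in the ESC and 0.401 and 26.9 CPM in the iPSC day 18 libraries. Every day 28 value was above every day 18 value, and the low-Nrl pair held the lowest. The log2 difference was 6.14 (SE 1.15, 95% interval 3.66 to 8.61, adjusted p = 0.0406). Pde6a (chromosome 18, 61220315 to 61289924, plus strand) was at 29.2 (ESC) and 66.4 (iPSC) CPM at day 28. At day 18 it was at 0.210, 1.18 and 0 CPM in the ESC libraries and at 0 and 1.96 CPM in the iPSC libraries. The groups lay far apart, and Pde6a had the smallest adjusted p of the comparison (log2 difference 4.85, SE 0.46, adjusted p = 0.000997). Pde6b did not pass, at 742 (ESC) and 1616 (iPSC) CPM at day 28, against 1.45, 274 and 27.2 CPM in the ESC and 0.925 and 232 CPM in the iPSC day 18 libraries. Its log2 difference of 5.47 was larger than that of Pde6a, but so was its SE of 1.68, pooled over all 16 libraries (limma adjusted p = 0.122). The libraries of Pde6b spread from 0.925 to 274 CPM at day 18 and from 118.5 to 854 CPM at day 21.

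Transducin is made of an alpha, a beta and a gamma subunit, in rods Gnat1, Gnb1 and Gngt1. Gnat1 (chromosome 9, 107674474 to 107679712, minus strand) was at 12.2 (ESC) and 104 (iPSC) CPM at day 28, against 5.17, 4.29 and 1.97 CPM in the ESC and 4.68 and 5.73 CPM in the iPSC day 18 libraries. The groups did not overlap, yet the iPSC day 28 library stood far above the ESC one, and the log2 difference of 2.77 (SE 0.50, adjusted p = 0.0405) was 4.09 within iPSC and 1.52 within ESC. Gngt1 was at 359 (ESC) and 675 (iPSC) CPM at day 28, against 4.07, 24.5 and 32.3 CPM in the ESC and 5.82 and 70.1 CPM in the iPSC day 18 libraries (log2 difference 4.71, SE 0.88, adjusted p = 0.0406). Gnb1 was at 1107 (ESC) and 2753 (iPSC) CPM at day 28, against 254 to 542 CPM at day 18, and missed the threshold (2.19, adjusted p = 0.0696). Its lowest day 18 level was thus high where those of Gnat1 and Gngt1 were low.

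The Gngt1 promoter is shown because it was the called transducin gene with a sequence in the RefSeq promoter table (build GRCm38.p6) and it held motifs. The 250 bases before its RefSeq start (chr6:3993758-3994007, plus strand, 5′ to 3′) are given with matches in capitals. These are TTTATA, which is TATAAA on the other strand, starting at -133, and GGATTA, the core TAATCC bound by Crx-type homeodomains on the other strand, starting at -44.
Gngt1: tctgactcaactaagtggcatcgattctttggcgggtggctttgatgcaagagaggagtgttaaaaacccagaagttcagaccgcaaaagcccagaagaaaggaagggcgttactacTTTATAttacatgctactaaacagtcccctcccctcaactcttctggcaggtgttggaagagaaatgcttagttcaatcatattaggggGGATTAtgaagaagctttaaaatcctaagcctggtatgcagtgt

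The genes of recovery were less uniform. Rcvrn, recoverin, the calcium sensor that restrains the pigment kinase, was at 58.3 (ESC) and 206 (iPSC) CPM at day 28, against 0.0621, 0 and 2.83 CPM in the ESC and 0.123 and 10.9 CPM in the iPSC day 18 libraries (log2 difference 5.59, SE 1.00, adjusted p = 0.0405). Gnb5, the beta subunit bound to the RGS9 protein that switches transducin off, was at 71.1 (ESC) and 174 (iPSC) CPM at day 28, against 13.0 to 29.6 CPM at day 18 (2.38, adjusted p = 0.0457). Its partner Rgs9 averaged 88.8 CPM at day 28 and 16.2 CPM at day 18 and did not pass (2.43, adjusted p = 0.0774). The channel subunits Cngb1 (6.45) and Cnga1 (5.59) and the arrestin gene Sag (4.22) had log2 differences as large as those of called genes and did not pass. The pigment kinase Grk1 had the smallest difference of the list at 1.12.

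Among outer segment disc and ciliary genes, Kcnv2, Wdr17 and Fam161a rose, 3 of the 27 tested, against 0.507% of all genes, and none fell. The median log2 difference was 3.16, with 25 positive values. Without the low-Nrl pair 0 were called and the median was 2.04, and without the Y-label pair 8 were called higher and the median was 3.38. Kcnv2, a potassium channel subunit of photoreceptor inner segments, was at 205 (ESC) and 454 (iPSC) CPM at day 28, against 4.07, 7.72 and 23.1 CPM in the ESC and 4.24 and 71.0 CPM in the iPSC day 18 libraries (4.47, adjusted p = 0.0406). Wdr17 was at 82.8 (ESC) and 190 (iPSC) CPM at day 28, against 8.75 to 16.7 CPM at day 18 (3.24, adjusted p = 0.00568). In it the low-Nrl pair, at 13.3 and 10.9 CPM, lay inside the range of the other day 18 libraries. Fam161a, which encodes a ciliary protein of the photoreceptor, was at 122 (ESC) and 224 (iPSC) CPM at day 28, against 9.37 to 55.6 CPM at day 18 (2.91, adjusted p = 0.0487). Prph2, a structural protein of the disc rim, was at 808 (ESC) and 1943 (iPSC) CPM at day 28, against 7.97 to 341 CPM at day 18, and did not pass (4.52, adjusted p = 0.102).

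Rdh8, which reduces the retinal released by bleached pigment in the outer segment, was the called member among 14 visual cycle genes (median log2 difference 0.69). Rdh8 (chromosome 9, 20818503 to 20826117, plus strand) was at 57.6 (ESC) and 96.5 (iPSC) CPM at day 28, against 0, 0.162 and 0 CPM in the ESC and 0 and 4.79 CPM in the iPSC day 18 libraries (5.65, SE 0.82, adjusted p = 0.0202). At day 18 it was close to the level of a single count in every library except iPSC replicate 2. The collagen gene Col5a3 lies head to head with Rdh8, their starts 3436 bases apart, and also rose. It was at 43.7 (ESC) and 125 (iPSC) CPM at day 28, against 1.03 to 22.1 CPM at day 18 (3.82, adjusted p = 0.0481). Rdh12, another photoreceptor retinol dehydrogenase, averaged 150 CPM at day 28 and 8.63 CPM at day 18 (4.32, adjusted p = 0.0537).

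At the synapse, Cplx4, a complexin of photoreceptor ribbon terminals, was the called member of 26 ribbon synapse genes (median log2 difference 1.71, 23 positive). Cplx4 was at 25.7 (ESC) and 50.9 (iPSC) CPM at day 28, against 0.614, 2.05 and 1.77 CPM in the ESC and 0.402 and 8.25 CPM in the iPSC day 18 libraries (3.67, adjusted p = 0.0406). The differences of this list ran from -1.09 (Rims1) to 4.11 (Lrit1), with the vesicle fusion protein Snap25 at 1.96 and the active zone protein Bsn at -0.05, and these 4 did not pass. None of 18 photoreceptor transcription factors passed (median 1.48). Nrl (3.88, adjusted p = 0.129), Nr2e3 (4.36, adjusted p = 0.122) and Crx (1.79, adjusted p = 0.193) were above their day 18 means, with day 28 values overlapping day 18 for Crx.

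**Figure D2:**
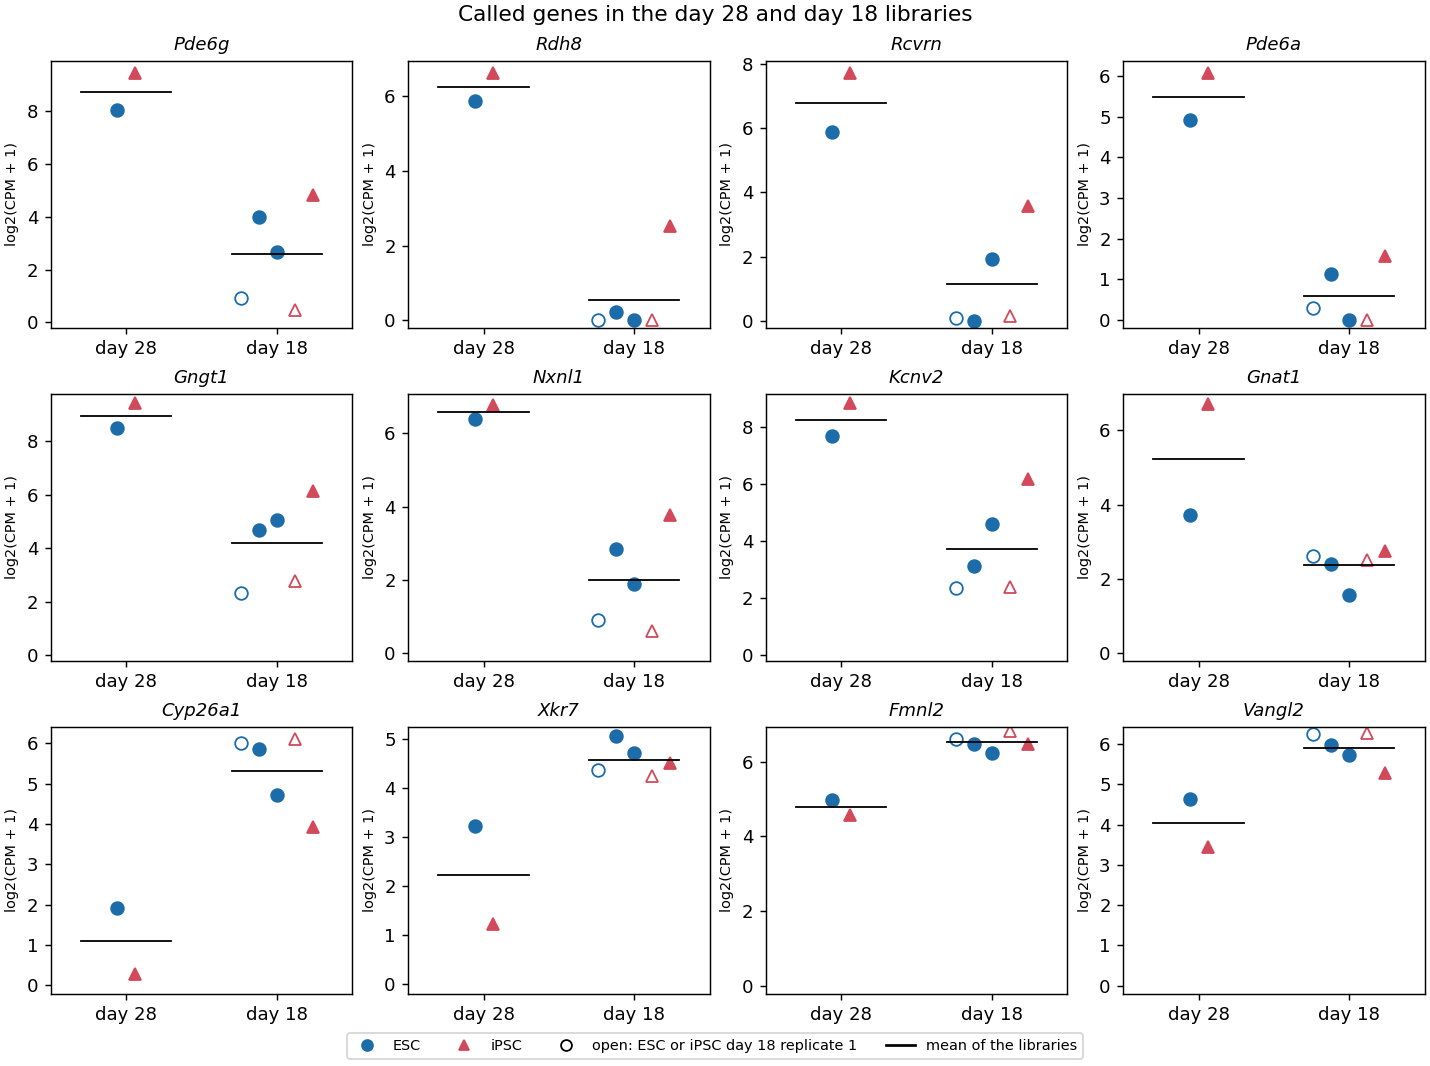
Log2(CPM + 1) of 12 called genes in the 2 day 28 libraries (left) and the 5 day 18 libraries (right), circles for ESC, triangles for iPSC, open symbols for the low-Nrl pair and lines for means. In each gene both day 28 values lie outside the day 18 range, as they do in 11.9% (above) and 11.6% (below) of all tested genes. The choice of called genes on these same libraries largely fixes this. The day 18 library nearest to them in rod genes such as Rdh8 is iPSC replicate 2 (4.79 CPM, against 0 to 0.162 CPM in the other 4).

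Cone genes gave no call in 11 tested (median 0.70). The cone phosphodiesterase Pde6c was at 14.2 (ESC) and 6.20 (iPSC) CPM at day 28, against 17.0 to 107 CPM at day 18 (-2.10, adjusted p = 0.127). The cone transducin Gnat2 was at 7.999 (ESC) and 3.16 (iPSC) CPM at day 28, against 3.06 to 27.8 CPM at day 18 (-0.49). Opn1sw, the short-wavelength cone opsin, was at 92.0 (ESC) and 40.5 (iPSC) CPM at day 28, inside its day 18 range of 2.04 to 84.2 CPM for iPSC and above it for ESC (1.94, adjusted p = 0.326). Gnb3 and Gngt2, the cone transducin partners, were at 744 to 1187 and 417 to 548 CPM at day 28, against 68.9 to 1013 and 25.4 to 350 CPM at day 18. Whether cone genes moved differently from their rod counterparts was not tested.

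Further genes called higher had various roles. Ckmt1, the mitochondrial creatine kinase, rose to 39.9 (ESC) and 98.9 (iPSC) CPM at day 28, against 5.61 to 10.1 CPM at day 18 (2.89, SE 0.36, adjusted p = 0.00594). It was the called gene of 25 in creatine and glycolysis (median 0.68), and no gene of 22 in oxidative phosphorylation passed (median 0.45). Both day 28 libraries lay above all of day 18 in 11 of the 25 and 13 of the 22, against 11.9% of all genes, and below in 0 of either list. Ppargc1b, a coactivator of mitochondrial gene expression, was at 26.4 (ESC) and 62.0 (iPSC) CPM at day 28, against 0.785 to 7.26 CPM at day 18 (3.70, adjusted p = 0.0425). Nxnl1, whose product rod-derived cone viability factor is made by photoreceptors, was at 82.2 (ESC) and 108 (iPSC) CPM at day 28, against 0.531 to 12.6 CPM at day 18 (4.55, adjusted p = 0.0406). Tub, whose loss causes retinal degeneration in the tubby mouse, was at 243 (ESC) and 446 (iPSC) CPM at day 28, against 52.9 to 109 CPM at day 18 (2.16, adjusted p = 0.028). Vopp1 had a high level in both groups, at 544 (ESC) and 1006 (iPSC) CPM at day 28, against 106 to 304 CPM at day 18 (2.34, adjusted p = 0.0399). Bpifb6, a lipid-transfer family member, was at 38.3 (ESC) and 55.7 (iPSC) CPM at day 28, with iPSC day 18 replicate 2 at 12.8 CPM and the other day 18 libraries at 0 to 0.254 CPM (4.67, adjusted p = 0.0406). Lcn2, a gene of the glial injury response, passed at very low levels of 1.16 (ESC) and 1.86 (iPSC) CPM at day 28, against 0 to 0.185 CPM at day 18 (1.19, adjusted p = 0.043). It was the called gene of 13 in the injury list, and 9 of the 88 genes had a mean under 5 CPM over the 16 libraries.

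Some calls cannot be assigned to 1 gene alone. Exons of Lbhd1 and 1810009A15Rik overlap on the same strand, as do those of Serinc4 and Ell3. Ckmt1 overlaps Strc, Gnb5 overlaps Gm19531, Tub overlaps Ric3 and Rnf207 overlaps Icmt on opposite strands, and whether strand was used in the quantification is not given in the sources used here. Genes just inside the threshold were Lbhd1 (adjusted p = 0.04969), Fam161a and Cd84 (0.04868), and just outside it were Wasf3 and Nadk (0.0501).

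**Figure D3:**
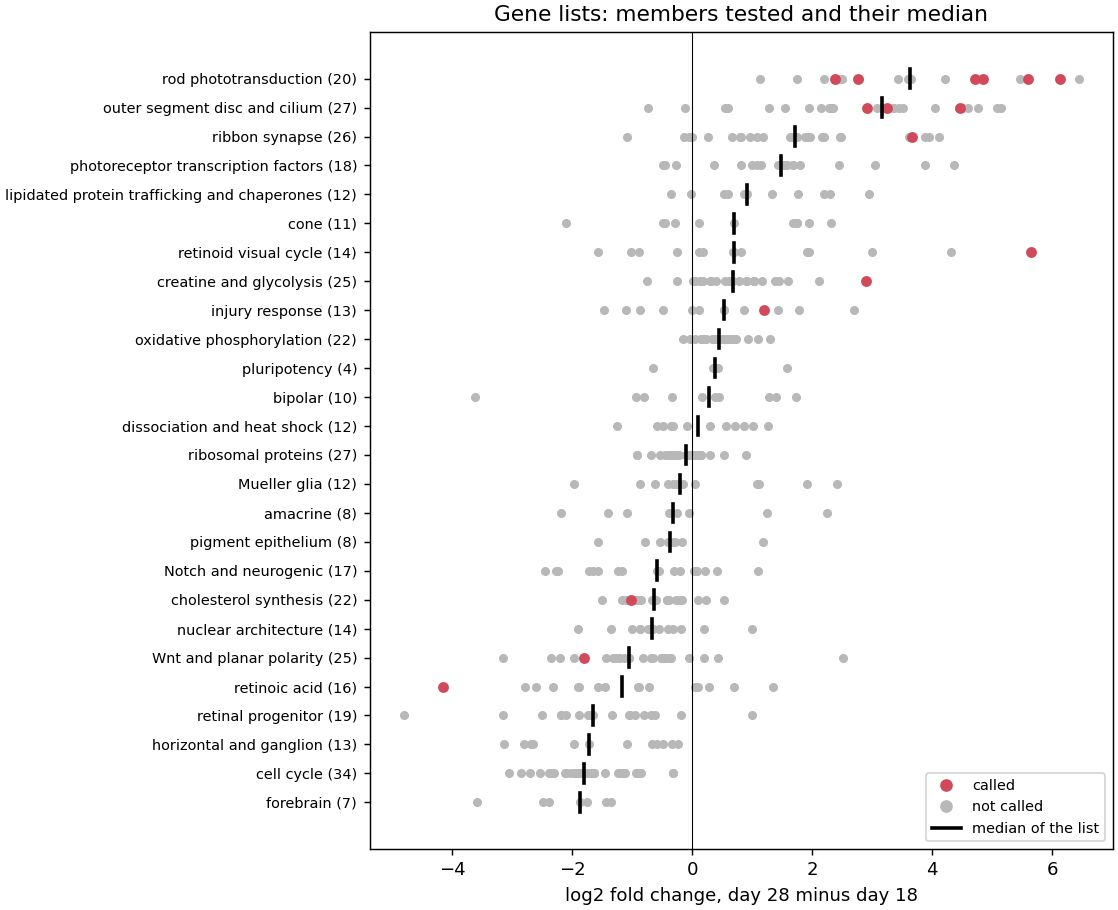
Log2 difference, day 28 minus day 18, of every tested member of 26 gene lists (1 point a gene, coloured where called; 1 called phototransduction gene is not drawn), with the median of each list as a black bar and the number tested in brackets. Rod phototransduction (3.63) and the outer segment (3.16) lie at the top, forebrain (-1.87) and cell cycle (-1.81) at the bottom. Rod phototransduction has the most called genes, 7 of 20, and several lists have none.

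The 11 genes called lower include genes of retinoic acid breakdown and of planar polarity. Cyp26a1 (chromosome 19, 37697798 to 37701536, plus strand) was at 2.75 (ESC) and 0.217 (iPSC) CPM at day 28, against 63.1, 56.7 and 25.1 CPM in the ESC and 68.2 and 14.3 CPM in the iPSC day 18 libraries (-4.16, SE 0.81, adjusted p = 0.0414). It fell as the called gene among 16 of the retinoic acid pathway (median -1.18). Cyp26b1, the related degrading enzyme, averaged 28.7 CPM at day 28 and 193 CPM at day 18, and Rarb, a receptor gene that retinoic acid induces, averaged 22.0 CPM at day 28 and 66.9 CPM at day 18; neither passed. Vangl2, a core planar cell polarity protein, fell to 23.7 (ESC) and 9.96 (iPSC) CPM at day 28, against 74.8, 61.6 and 51.9 CPM in the ESC and 77.1 and 37.6 CPM in the iPSC day 18 libraries (-1.81, SE 0.35, adjusted p = 0.0422). It was the called gene of 25 in the Wnt and planar polarity list (median -1.05). Tcf7, a transcription factor of Wnt signalling, was not on that list and fell to 2.52 (ESC) and 2.94 (iPSC) CPM at day 28, against 6.79 to 14.4 CPM at day 18 (-1.66, adjusted p = 0.0413).

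Further falls were in genes of other kinds. Fmnl2, a formin, was at 30.7 (ESC) and 23.0 (iPSC) CPM at day 28, against 74.7 to 112 CPM at day 18 (-1.72). Xkr7 was at 8.31 (ESC) and 1.34 (iPSC) CPM at day 28, against 17.8 to 32.2 CPM at day 18 (-2.26). Nsdhl, an enzyme of cholesterol synthesis, had the smallest called fall, at 27.9 (ESC) and 28.4 (iPSC) CPM at day 28, against 49.9 to 71.1 CPM at day 18 (-1.03). It was the called gene of 22 in cholesterol synthesis (median -0.64), of which Hmgcs1 had a difference of -1.17 and did not pass. The low-Nrl pair held the highest day 18 levels of Cyp26a1, Vangl2, Fmnl2 and Nsdhl. None of the 11 falls was called without that pair.

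Genes of dividing and other cells were mostly lower at day 28 without passing. All 34 tested cell cycle genes had negative differences (median -1.81, against -1.17 without the low-Nrl pair), and their summed level was 940 (ESC) and 387 (iPSC) CPM at day 28, against 795 to 3502 CPM at day 18. Negative values were found for 52.4% of all genes. Retinal progenitor genes had a median of -1.66 (18 of 19 negative). Their sum was 1212 (ESC) and 350 (iPSC) CPM at day 28, against 594 to 3616 CPM at day 18, so that the days overlapped. Fgf15, with the largest fall of that list (-4.82), was at 18.6 (ESC) and 1.92 (iPSC) CPM at day 28, against 28.6 to 868 CPM at day 18. Horizontal and ganglion cell markers had a median of -1.73 (13 of 13 negative), and their sum was 76.6 (ESC) and 41.6 (iPSC) CPM at day 28, against 83.3 to 359 CPM at day 18. Forebrain markers summed to 21.8 (ESC) and 9.89 (iPSC) CPM at day 28, against 24.3 to 237 CPM at day 18, both members of the low-Nrl pair being at 226 CPM or more. At day 28 these sums were mostly lower, while the rod genes were higher. The part of these sums in the rod gene differences was not tested.

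Markers of further cell types overlapped between the days. Müller glia markers summed to 924 (ESC) and 551 (iPSC) CPM at day 28, against 780 to 1318 CPM at day 18. Bipolar markers summed to 139 (ESC) and 108 (iPSC) CPM at day 28, against 74.7 to 160 CPM at day 18, and amacrine markers to 548 (ESC) and 276 (iPSC) CPM at day 28, against 381 to 772 CPM at day 18. Pigment epithelium markers summed to 80.0 (ESC) and 289 (iPSC) CPM at day 28, against 37.8 to 1574 CPM at day 18, the highest day 18 value resting on Ttr in ESC replicate 2 (1554 CPM). At 0 in both day 28 libraries were 1 of 13 horizontal and ganglion markers, 1 of 10 amacrine markers, 2 of 10 pigment epithelium markers and 3 of 9 pluripotency markers. The numbers at 0 in every day 18 library were 0, 0, 1 and 2 in the same order. A 0 in all 5 day 18 libraries is a stricter demand than a 0 in 2, so these numbers are not alike. Of all genes, 47.71% (ESC) and 49.32% (iPSC) were at 0 in the day 28 libraries, against 40.85% to 47.77% at day 18. Pluripotency markers summed to 7.99 (ESC) and 15.9 (iPSC) CPM at day 28, against 2.91 to 10.9 CPM at day 18. Ribosomal protein genes (median -0.10), Notch and neurogenic genes (-0.60), genes of nuclear architecture (-0.68), lipidated protein trafficking (0.91) and dissociation and heat shock (0.10) gave no call. The trafficking list did not overlap between the days, summing to 2733 (ESC) and 4027 (iPSC) CPM at day 28, against 1098 to 2272 CPM at day 18. Both day 28 libraries lay above all of day 18 in 8 of its 12 genes, against 11.9% of all genes, and below in 0.

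Most genes called higher stood higher in the iPSC than in the ESC day 28 library, and no gene passed the test of a different change in the 2 sources. Within each source, all 77 genes called higher had positive and all 11 called lower had negative differences, which the choice of these genes largely fixes. The median was 2.57 in iPSC and 2.25 in ESC for the genes called higher. In 73 of the 77 the iPSC day 28 library exceeded the ESC one, against 51.2% of all genes, and the median log2 excess was 0.73, against 0.02 over all genes. The interaction of day and source gave 0 calls (lowest adjusted p = 0.391 over all genes, limma), with 482 genes at an unadjusted p under 0.05, among them the called genes Gnat1 (difference of changes 2.57), Gm10288 (4.77) and Zfp125 (1.24). At day 18, iPSC replicate 2 held the highest level in 53 of the 77 genes. The same share over all genes was not counted, so the 53 cannot be read as particular to the called genes. The ESC day 28 library correlated across genes at 0.962 with that day 18 library, against 0.938 with the iPSC day 28 library. Y-linked genes of iPSC day 18 replicate 2 averaged 42.2 CPM, within the 25.6 to 73.8 CPM of the ESC libraries other than day 18 replicate 1. The comparison of the sources kept the labels of the Y-label pair as given and had 1 day 28 library per source.

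The other days were compared in contrasts chosen after seeing the data, first in a fit of the 9 libraries of days 21, 25 and 35 alone. At day 25 against day 21, 75 of the 77 genes called higher had positive differences, against 51.7% of all genes, with a median of 0.98. No gene was called in that contrast (lowest adjusted p = 1, limma), with 496 at an unadjusted p under 0.05. Of the 11 called lower, 10 were negative, against 48.3% of all genes, the exception being Cyp26a1. At day 35 against day 21, 76 of the 77 were positive, against 52.7% of all genes, with a median of 1.84, and 22 were called higher, against 0.579%. All 11 called lower were negative, against 47.3% of all genes, and 3 were called lower, against 0.71%. The spread of these 9 libraries also entered the fit that chose the 88 genes.

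In the fit over all 16 libraries, whose source term and spread also draw on days 28 and 18, the numbers were close except for the calls. At day 25 against day 21, 76 of the 77 were positive, against 49.8% of all genes, and 10 of the 11 were negative, against 50.2%, with 0 genes called and 656 at an unadjusted p under 0.05 (limma). At day 35 against day 21, 76 of the 77 were positive, against 52.1%, and all 11 were negative, against 47.9%. In that contrast 36 of the 77 were called higher, against 1.35% of all genes, and 4 of the 11 lower, against 1.45%.

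Pde6a showed a gradual course. It was at 0 to 1.96 CPM at day 18, 2.08 to 3.29 CPM at day 21, 8.21 to 23.9 CPM at day 25, 29.2 to 66.4 CPM at day 28 and 126 to 226 CPM at day 35, with no overlap between neighbouring days. Gnat1 was late, at 1.97 to 5.73 CPM at day 18, 3.15 to 6.66 CPM at day 21, 11.5 to 21.2 CPM at day 25, 12.2 to 104 CPM at day 28 and 139 to 248 CPM at day 35. Pde6g was at 10.9 to 150 CPM at day 21 and 72.4 to 243 CPM at day 25, which overlap, and both day 28 libraries (260 and 690 CPM) lay above them. Cyp26a1 was at 14.3 to 68.2 CPM at day 18, 1.07 to 19.5 CPM at day 21 and 2.78 to 7.49 CPM at day 25, all within the retinoic acid period, and at 0.217 to 2.75 CPM at day 28. Between day 35 and day 28 no gene was called (707 at an unadjusted p under 0.05, limma). Of the 77 genes, 51 were higher at day 35, with a median of 0.22 in a contrast that shares the day 28 libraries. The share of all genes higher at day 35 was not counted, so a continued rise cannot be read from the 51.

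**Figure D4:**
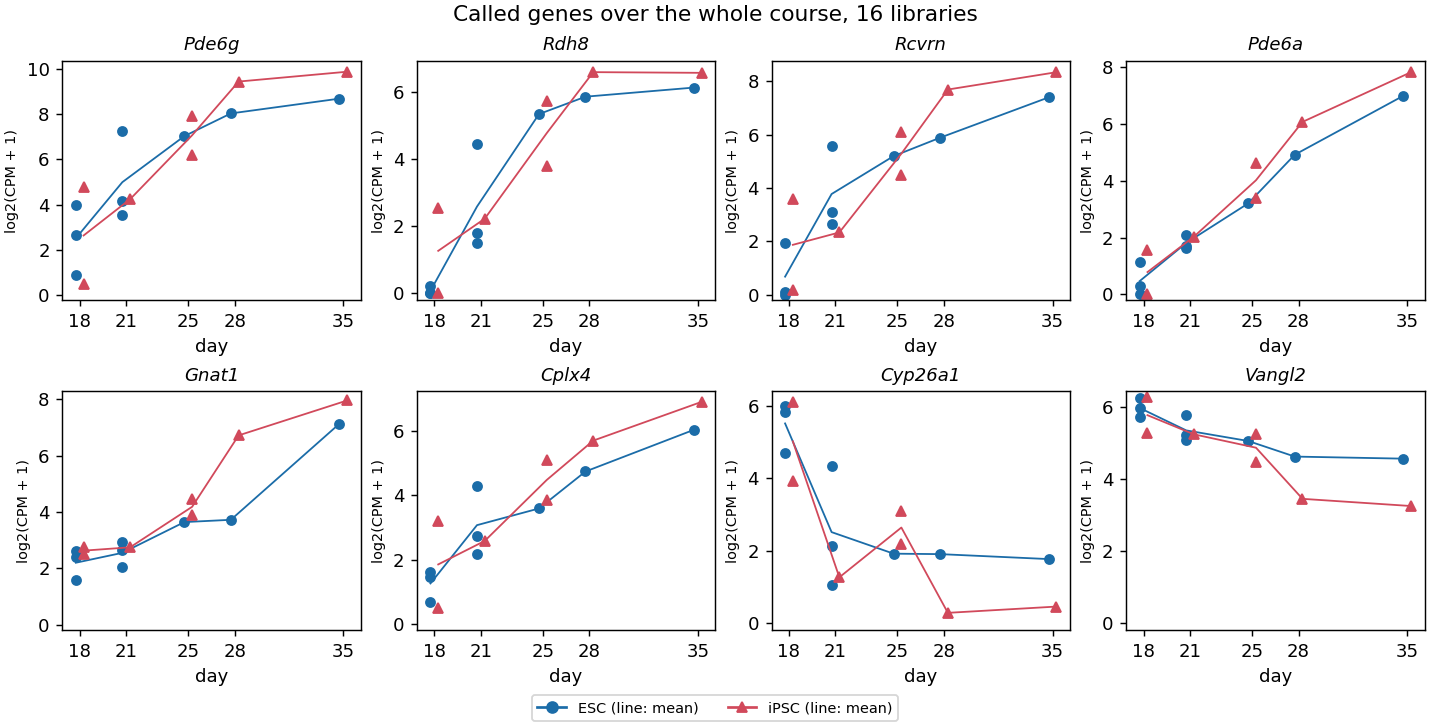
Log2(CPM + 1) of 8 called genes in all 16 libraries by day, circles for ESC and triangles for iPSC, lines joining the means of each source. Pde6a is higher at each later day, up to 226 CPM at day 35, while Cyp26a1 is at 19.5 CPM or less from day 21 on.

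Transcript shares within a gene were read from the deposited TPM for the genes whose transcripts are all held and that had at least 50 estimated counts in each of the 7 libraries. A transcript was counted as shifted where both day 28 shares lay outside the day 18 range and the means differed by at least 15 percentage points. Of 27 called genes that could be examined, 7 (25.9%) had such a transcript, against 535 of 4432 genes (12.1%). They included Guk1, Fam149a, Wdr17, Fam3c, Rab30 and 1810009A15Rik. No test was made of these shares, and kallisto assigns reads shared by transcripts by estimation.

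Guk1, guanylate kinase, which recycles GMP for the synthesis of cyclic GMP, rose to 105 (ESC) and 174 (iPSC) CPM at day 28, against 13.4 to 34.1 CPM at day 18 (2.75, adjusted p = 0.0396). Its transcript from a downstream start (chromosome 11, position 59187741, minus strand) made up 59.6% (ESC) and 60.8% (iPSC) of the TPM of the gene at day 28. At day 18 it made up 32.9%, 31.1% and 20.6% in the ESC and 39.6% and 37.3% in the iPSC libraries. The transcript from the upstream start (position 59191952) made up 31.7% (ESC) and 27.8% (iPSC) at day 28, against 43.2% to 64.9% at day 18. The downstream transcript was thus the larger one in both day 28 libraries and the smaller one in all 5 day 18 libraries. Day 35 did not keep this order in both sources: the downstream share was 35.5% in ESC and 52.6% in iPSC.

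Both Guk1 promoters are shown to set the starts side by side (RefSeq, GRCm38.p6, 250 bases before each start, 5′ to 3′ on the minus strand). The downstream one (chr11:59187742-59187991) holds TGCTGA, a half-site of the Nrl recognition element, from -208, overlapping AGGTCA, a nuclear receptor half-site, on the other strand from -205; both are in capitals. The upstream one (chr11:59191953-59192202) holds none of the motifs searched in the bases shown.
Guk1 downstream: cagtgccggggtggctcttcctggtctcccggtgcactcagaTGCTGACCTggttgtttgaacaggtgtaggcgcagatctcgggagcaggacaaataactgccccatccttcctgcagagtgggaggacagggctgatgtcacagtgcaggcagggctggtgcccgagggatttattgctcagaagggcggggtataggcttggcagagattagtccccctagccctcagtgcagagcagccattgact
Guk1 upstream: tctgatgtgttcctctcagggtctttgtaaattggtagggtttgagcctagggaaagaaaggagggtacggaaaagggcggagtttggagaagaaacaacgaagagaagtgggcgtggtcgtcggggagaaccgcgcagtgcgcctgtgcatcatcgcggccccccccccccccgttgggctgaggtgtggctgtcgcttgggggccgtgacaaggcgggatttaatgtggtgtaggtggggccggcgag

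**Figure D5:**
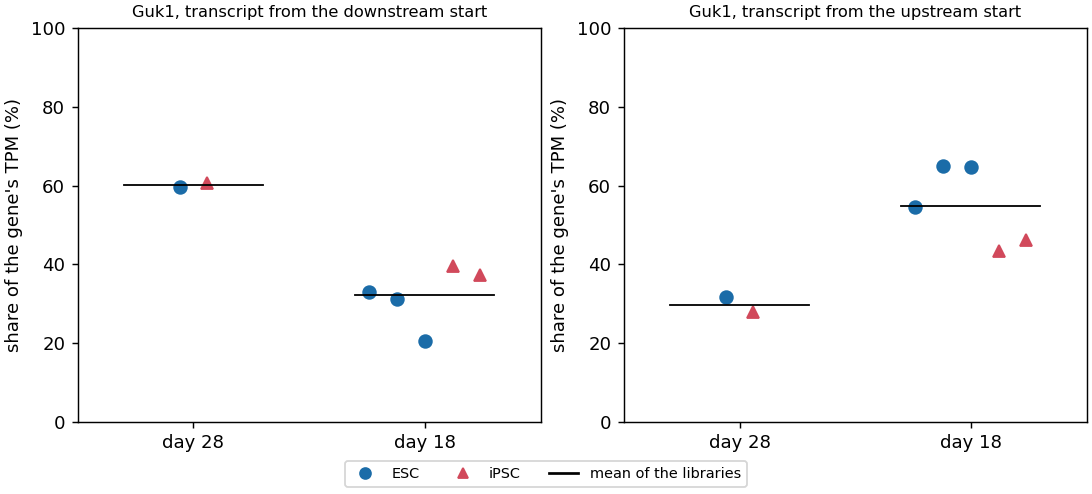
Share of the TPM of Guk1, in percent, carried by the transcript from the downstream start (left panel) and from the upstream start (right panel) in the day 28 and day 18 libraries, circles for ESC, triangles for iPSC and lines for means. The downstream share averages 60.2% at day 28 and 32.3% at day 18. The upstream share averages 29.8% at day 28 and 54.7% at day 18, with no overlap in either panel.

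Fam149a had the widest shift. The gene was at 88.5 (ESC) and 121 (iPSC) CPM at day 28, against 11.4 to 45.6 CPM at day 18 (2.44, adjusted p = 0.0396). Its longest-reaching transcript (chromosome 8, start at 45382291, minus strand) made up 54.9% (ESC) and 81.2% (iPSC) at day 28, against 9.08% to 40.7% at day 18. A transcript starting at 45358865 made up 8.05% (ESC) and 4.61% (iPSC) at day 28, against 19.6% to 45.4% at day 18. The 250 bases before the start at 45382291 are shown because they hold a match of the Crx core, GGATTA on the strand shown, from -96 (chr8:45382292-45382541, minus strand, RefSeq GRCm38.p6, 5′ to 3′, match in capitals).
Fam149a: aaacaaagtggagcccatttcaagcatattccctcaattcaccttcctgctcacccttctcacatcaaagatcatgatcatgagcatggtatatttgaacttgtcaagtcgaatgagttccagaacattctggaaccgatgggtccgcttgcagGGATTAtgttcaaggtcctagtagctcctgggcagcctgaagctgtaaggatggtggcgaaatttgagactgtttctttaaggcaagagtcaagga

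Motifs were counted in windows of 300 bases, 250 before to 50 after the RefSeq start, on both strands, by exact letters. Of the 77 genes called higher, 56 had a promoter in the table. TAATCC was in 11 of them (19.6%), against 8.1% of 27025 genes with a promoter. TGCTGA was in 19 (33.9%), against 21.7%, AGGTCA in 10 (17.9%), against 18.1%, and TATAAA in 11 (19.6%), against 15.7%. Of the 11 genes called lower, 6 had a promoter, with TAATCC and TGCTGA in 0, AGGTCA in 2 and TATAAA in 2. Genes with both TAATCC and TGCTGA included Wdr17 and Epb41l2, and Rdh8 held TGCTGA within the first 50 transcribed bases. A match of letters is not a binding site, and no test was made of these shares.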

How the data were processed

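PolyA RNA-seq reads of 16 sorted samples were processed with Trimmomatic 0.36, then kallisto 0.42.5, on GRCm38.p4, per the submitters' processing notes. The authors deposited a gene table named as CPM, whose values are a score, the square of log2(CPM + 1) minus 1; it was turned back into CPM. This form was checked on 7692 genes, of which 7585 (98.6%) kept a constant ratio to the deposited TPM across libraries (tolerance 0.01 on the log2 ratio). The authors also deposited estimated counts and TPM per transcript, which end at 65535 transcripts; 65096 matched GENCODE M21 (GRCm38), and gene sums are complete for 12684 genes. Transcript shares use the deposited TPM. Annotated positions are from GENCODE M21 and promoters from RefSeq.

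CPM columns sum to 642418 to 885155, and 40.0 to 49.3% of the 32166 genes per library are at 0. Day and source were factors in limma 3.58.1 (trend, R 4.3.3) on log2(CPM + 1) over all 16 libraries, keeping genes that reached 1 CPM in 2 or more libraries. All log2 differences are on that scale, where changes of low genes come out too small. Calls need a Benjamini-Hochberg adjusted p under 0.05 over all tested genes. Estimated counts of complete genes, rounded to whole numbers, were tested with edgeR 4.0.16 (at least 10 counts in at least 2 libraries) and DESeq2 1.42.0. The fit was tested on simulated data. The first 2 principal components held 45.6% and 17.5% of the variance.

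Replicate numbers were not treated as pairs: deviations of same-numbered ESC libraries of days 21 and 18 correlated at 0.314, 0.059 and 0.249. Alternatives were another pseudocount, other filters, rescaled CPM, TMM factors, array weights, a replicate block, each library left out, the 7 libraries alone, each source alone, and removal of the low-Nrl or the Y-label pair of day 18.

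The genes, lists and tests were chosen with earlier results of these data known, so the lists are described by counts and medians and not tested. Named were the called genes of at least 5 CPM on average with the 12 largest changes each way (predicted gene models left out), landmark photoreceptor genes, rod and cone partner subunits, and called members of each list or its 2 most abundant genes. Other genes are named as examples from those lists or because a sequence or transcript share turned on them, after their values were seen. Some genes that the rule gives are not reported here.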

Additional observations from a re-analysis of the deposited data

Results flagged for a closer look

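In 8 of the 74 genes given by the naming rule, 1 of the 5 day 18 libraries stood far from the other 4. The gap, taken on log2(CPM + 1) and not on the CPM printed below, was more than 0.71 of the range of the group (Dixon's test at 95%). Chance flags about 1 in 20 groups, and the 2 libraries of day 28 were too few for this test. Among the 8 flagged genes, 3 are called genes, and in each the library standing apart was iPSC day 18 replicate 2. Rdh8, at 57.6 and 96.5 CPM at day 28, was at 4.79 CPM in that library, with 0.162 CPM in the next day 18 library (gap over range 0.914). Bpifb6, at 38.3 and 55.7 CPM at day 28, was at 12.8 CPM there, with 0.254 CPM in the next (0.914). Cdr2l, which was called lower and was at 11.7 and 7.57 CPM at day 28, was at 18.5 CPM there, with 23.9 CPM in the next (0.721).

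The other flags were in genes that were not called. In iPSC day 18 replicate 2, Btg2 was at 880 CPM, against 444 CPM in the next library (0.722), and Hmgn2 at 1711 CPM, against 689 CPM (0.755). H1f0 was at 201 CPM in ESC day 18 replicate 2, against 342 CPM (0.752), and Onecut1 at 7.58 CPM in the same library, against 25.0 CPM (0.713). Egr1, an immediate early gene, was at 77.0 CPM in ESC day 18 replicate 3, against 305 CPM (0.726). Their part in the differences between the days was not tested.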

How the results depend on the processing

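All 88 called genes kept the direction of their log2 difference under every limma alternative that tested them, which the choice of these genes largely fixes. The number of calls (88, with 77 higher and 11 lower) changed with the settings and with the libraries used. It was 61 (49 higher) with a pseudocount of 0.1, 58 (54 higher, 4 lower) without a filter, 87 with a filter of 5 libraries, 123 (104 higher, 19 lower) with CPM rescaled to the same sum, where the median of all genes was -0.17, and 78 with TMM factors. It was 1 (1 higher, 0 lower) without the low-Nrl pair, 67 (65 higher, 2 lower) without the Y-label pair, and 5687 (2631 higher, 3056 lower) with array weights. The 7 libraries alone gave 2 (2 higher, 0 lower; 0 of the 88), ESC alone 1 (1 higher, 0 lower), and iPSC alone 0 (0 in either direction; 2288 at an unadjusted p under 0.05). Leaving out each library gave 1 to 539 calls (0 to 452 higher, 0 to 87 lower). The numbers were 7, 203 and 9 without ESC day 18 replicates 1, 2 and 3, 4 and 539 without iPSC day 18 replicates 1 and 2, 11, 8 and 152 without ESC day 21 replicates 1, 2 and 3, and 13 without iPSC day 21. They were 10 without ESC day 25, 112 and 14 without iPSC day 25 replicates 1 and 2, 5 and 1 without the ESC and iPSC day 28 libraries, and 146 without either day 35 library. Where a day was left with 1 library, it was assumed to vary like the other groups. Fewer libraries also leave fewer degrees of freedom, and the cause of the other shifts was not tested.

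A replicate block gave 2423 calls (1260 higher, 1163 lower) in limma and 1235 in edgeR, but the numbers do not pair the samples: ESC day 21 replicate 2 correlated best with day 18 replicate 1 (0.099). The edgeR test called 39 of 8747 genes (38 higher, 1 lower; 1777 at an unadjusted p under 0.05), 29 of the 55 called genes that it could test, and DESeq2 566 (304 higher, 262 lower). Rdh8, Rcvrn and Pde6a were not among the genes that edgeR tested; Pde6g (5.47, adjusted p = 0.0716) and Vangl2 (-1.84, adjusted p = 0.079) missed its threshold. EdgeR called 0 genes without the low-Nrl pair, 14 without the Y-label pair and 0 to 160 with each library left out. The interaction of day and source gave 0 calls, and 0 with single libraries left out other than those of day 28, without which it cannot be estimated, but 279 without a filter. Genes with both day 28 libraries above all of day 18 numbered 1806 (11.9% of those tested), 3044 without the Y-label pair and 1846 to 3900 with each library left out. Those below numbered 1760 (11.6%), and 1797 to 4247 with each library left out.

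Reversed log2 differences occurred in genes that were not called. Btg2 (0.03) was -0.12 with rescaled CPM, -0.23 without the low-Nrl pair, -0.52 within iPSC, -0.013 in edgeR and -0.016 in DESeq2. Neurod4 was -0.014 without the low-Nrl pair and -1.12 within iPSC. Ttr was -0.022 without the low-Nrl pair, -0.11 without the Y-label pair and -1.52 within ESC. Eif2s3y was -1.45 without the low-Nrl pair and in edgeR, -2.23 within iPSC and -1.91 in DESeq2. Ddx3y was 0.13 without the Y-label pair, 2.08 with array weights, 2.19 within ESC and 0.80 under the replicate block. With array weights, Gnat2 was 0.0048 and Gins2 0.14; within ESC, Gnat2 was 0.012, Gins2 0.093, Rpl4 0.12, H1f0 0.44, Egr1 0.19, Dkk3 0.21 and Klf4 0.11. With each library left out, the range was -0.38 to 0.43 for Btg2, -0.45 to 1.23 for Neurod4, -0.79 to 3.25 for Ttr, -0.68 to 1.92 for Eif2s3y, -1.38 to 1.16 for Ddx3y, -1.03 to 0.011 for Gnat2, -0.83 to 0.16 for Gins2, -0.60 to 0.12 for Rpl4, -0.97 to 0.29 for H1f0 and -1.11 to 0.086 for Egr1. Depth limits the low genes most: at day 28 a single estimated count was worth 0.157 (ESC) and 0.213 CPM (iPSC).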
